A study of Rattus norvegicus with 20 samples.

Results

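The genes described here encode the TGF-beta, BMP and activin pathway: its ligands, receptors, SMAD proteins, latent binding proteins and secreted antagonists. They were chosen by gene symbol from the count table, which gave 64 of 32545 rows and 63 different symbols, because Tgfbr1 had a second row. Of the 64, 55 had enough reads to be tested, and 53 of these had reads in all 20 libraries. The other 9 (Inhbc, Inhbe, Bmp8b, Bmp10, Gdf2, Gdf7, Gdf9, Smad9 and the second Tgfbr1 row) held between 0 and 23 reads in all and were left out, with no read at all for Bmp10 and Gdf2.

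RNA was read from inguinal white adipose tissue (iWAT), a subcutaneous fat depot, of male ZSF1 rats, with 5 rats in each of 4 groups. ZSF1 obese rats have no working leptin receptor, eat to excess and become obese and diabetic on Purina 5008 chow, and all 3 obese groups share this genotype. Cmpd 1 rats were ZSF1 obese rats given chow that held Cmpd 1, an inhibitor of the protein kinases PKCα and PKCβ. Food matched rats were ZSF1 obese rats given the chow without drug in an amount set to what the Cmpd 1 group had eaten in the week before. Obese rats were ZSF1 obese rats fed the chow without drug, and Lean rats were ZSF1 littermates that are not homozygous for the receptor mutations. Treatment began at 21 to 22 weeks of age and ran for 10 weeks, so the tissue came from rats of about 32 weeks. A phenotype field calls the Food matched rats lean, whereas their sample titles name obese rats, and they were taken as obese. Cmpd 1 rats ate less than Obese rats early in treatment. The gap narrowed over the weeks and was small by the end, when the tissue was taken. The comparison with Food matched rats was meant to set the compound apart from the lower food intake, which was matched by estimate and with a lag. Cmpd 1 rats also lost weight throughout and had less iWAT than Food matched rats. The part of body weight and depot size in the differences was not tested.

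Ligands of this family are secreted dimers that bind a pair of type II and a pair of type I receptor kinases. TGF-beta and activin signal through SMAD2 and SMAD3, BMPs signal through SMAD1, SMAD5 and SMAD9, and both branches use SMAD4. Latent TGF-beta binding proteins hold TGF-beta inactive in the matrix, while follistatin, noggin and chordin bind activins or BMPs outside the cell. In fat, TGF-beta is known for restraining adipocyte formation and driving fibrosis, and BMP4 and BMP7 for committing precursors to the adipocyte lineage.

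Counted reads per library ran from 3.17e+07 to 6.58e+07 in the Cmpd 1 group, 5.46e+07 to 7.48e+07 in the Food matched group, 5.67e+07 to 7.02e+07 in the Obese group and 5.06e+07 to 6.80e+07 in the Lean group. Values are given in CPM, read counts scaled to a common library size, in the order of rats 1 to 5 where 5 values stand together, and log2 fold changes are given ± their standard error. All 10 adipocyte markers examined were above 0 in all 20 libraries. Other tissues were present in some libraries. The summed level of 7 skeletal muscle markers was 3078 and 5355 CPM in Lean rats 1 and 2, 86.5 CPM in rat 5 of the Food matched group and up to 24.2 CPM elsewhere. The summed level of 5 gland epithelium markers reached 138 CPM in Lean rat 2 and 49.3 CPM in Obese rat 4, and that of liver and intestine markers 235 CPM in Lean rat 5. Results were therefore also computed without 5 libraries, Lean rats 1, 2 and 5, Obese rat 4 and Food matched rat 5. Lymph node markers, 6 in all, summed to 13.6 to 57.4 CPM in Lean rats and 2.99 to 4.72 CPM in Obese rats. They summed to 2.76 to 23.1 CPM in Food matched and 2.86 to 8.10 CPM in Cmpd 1 rats. Lean rats 3 and 4, kept when the 5 libraries were left out, were at 26.4 and 13.6 CPM. Their part in the results was not tested. In bulk tissue, fewer cells of a type and less RNA per cell cannot be told apart.

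A gene was called differentially expressed (DEG) at a fold change over 1.5 with an adjusted p under 0.05, both from the quasi-likelihood test of edgeR, with p-values adjusted by the Benjamini-Hochberg method over all 17653 genes tested. Over the 4 groups, 36 of the 55 tested genes differed at an adjusted p under 0.05, which is 65.5%, against 54.6% of all genes tested. Obese versus Lean gave 24 DEGs among the 55, or 43.6% against 22.3% of all genes tested, with 5 higher and 19 lower. Their median log2 fold change over the 55 was −0.25, against −0.01 over all genes. Cmpd 1 versus Food matched gave 11 DEGs, or 20% against 6.19% of all genes, with 6 higher and 5 lower and a median log2 fold change of 0.18 against 0.01. These comparisons have no rat in common, and 8 genes were DEGs in both, 33.3% of the 24 and 72.7% of the 11. Over all genes tested, 868 were DEGs in both, 22.1% of 3929 and 79.5% of 1092, and 840 of these moved in opposite directions. Among the 8, Gdf15 and Gdf3 were higher in Obese and lower with Cmpd 1, Acvr1c, Bmp5, Chrdl1 and Ltbp1 were lower in Obese and higher with Cmpd 1, and Bmpr1b was lower in both.

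**Figure D1:**
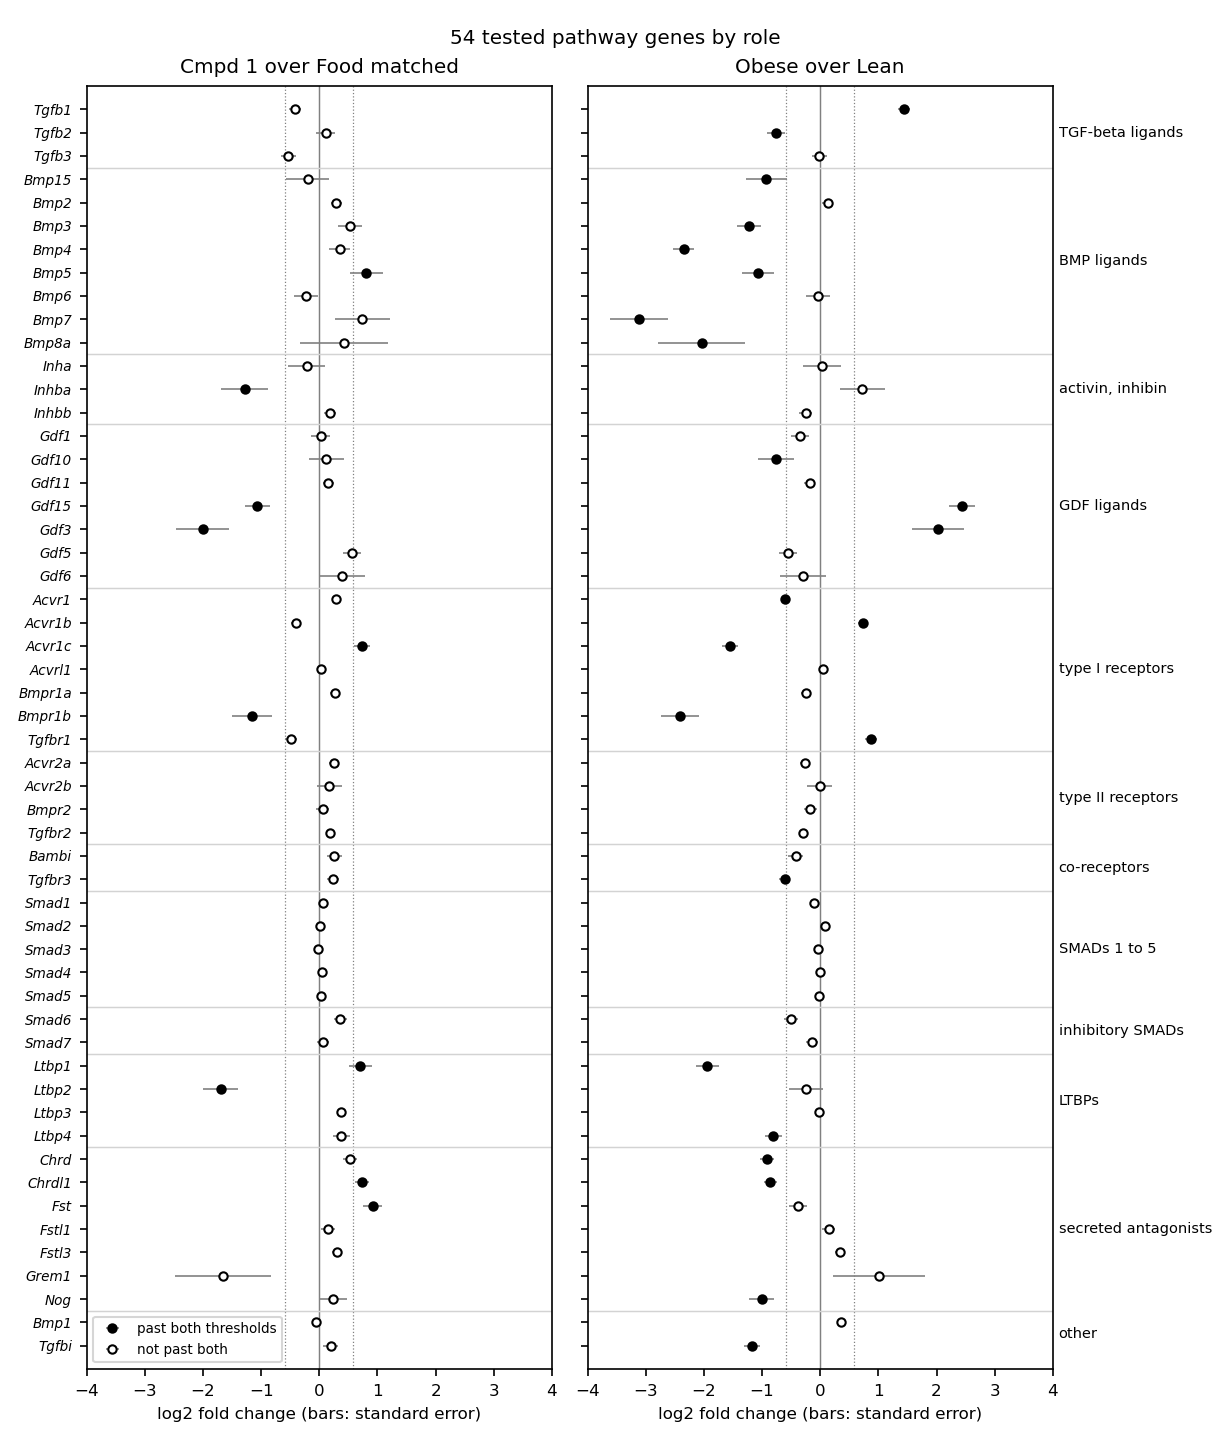
Log2 fold change of 54 of the 55 tested genes (rows, grouped by role) for Cmpd 1 over Food matched (left) and Obese over Lean (right), with standard errors as bars, filled points for DEGs and dotted lines at a fold of 1.5. Most filled points of the right panel lie below 0, down to −3.12 for Bmp7, while SMADs 1 to 5 lie near 0 in both panels.

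On the scale of CPM per kilobase of gene length, which allows levels of different genes to be compared, the highest mean over the 20 libraries was that of Fstl1, a secreted follistatin-like protein, at 106. Tgfbr2, the type II receptor of TGF-beta, followed at 98.7 and Chrdl1, a chordin-like BMP antagonist, at 68.0. These means rest on 15 libraries of obese rats and 5 of Lean rats, and the order differed between the groups. In Obese rats Fstl1 was first at 104, whereas in Lean rats Tgfbr2 at 109 and Chrdl1 at 100.3 stood above Fstl1 at 94.6. Of the ligands, Tgfb1 at 58.4 stood above Inhbb, the activin beta-B subunit, at 35.5 in Obese rats. In Lean rats Tgfb1 at 21.5 stood below Inhbb at 42.2. Of the BMP ligands, Bmp3 at 4.99 and Bmp6 at 4.93 were nearly level in Obese rats, followed by Bmp2 at 3.83 and Bmp4 at 2.64. In Lean rats Bmp4 was first at 13.4, followed by Bmp3 at 11.7, Bmp7 at 5.78 and Bmp6 at 5.04. In Cmpd 1 rats Bmp3 was at 5.33, Bmp2 at 4.30 and Bmp6 at 4.18. In Food matched rats Bmp6 at 4.93 stood above Bmp3 at 3.70 and Bmp2 at 3.51.

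Promoter sequence is shown for 2 pairs of genes that the comparisons turn on: Bmp4 and its antagonist noggin (Nog), both DEGs lower in Obese rats, and Ltbp1 and Ltbp2, which were DEGs in opposite directions with Cmpd 1. The 300 bases run from 250 before to 50 after the RefSeq start of each gene (GRCr8, 5′ to 3′ on the gene's own strand, which was the minus strand for all 4). Capitals mark the SMAD box, CAGAC or its reverse complement GTCTG, and the BMP element, GGCGCC, which reads the same on both strands. No box overlaps an element in these windows. The windows are chr15:22101884-22102183 for Bmp4, chr10:74627452-74627751 for Nog, chr6:26177252-26177551 for Ltbp1 and chr6:110257249-110257548 for Ltbp2.
Bmp4: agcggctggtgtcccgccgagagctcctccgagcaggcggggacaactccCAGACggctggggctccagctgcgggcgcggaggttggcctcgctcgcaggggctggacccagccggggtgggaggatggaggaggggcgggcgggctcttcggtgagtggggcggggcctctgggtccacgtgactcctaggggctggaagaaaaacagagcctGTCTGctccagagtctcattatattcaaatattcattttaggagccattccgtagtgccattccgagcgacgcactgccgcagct
Nog: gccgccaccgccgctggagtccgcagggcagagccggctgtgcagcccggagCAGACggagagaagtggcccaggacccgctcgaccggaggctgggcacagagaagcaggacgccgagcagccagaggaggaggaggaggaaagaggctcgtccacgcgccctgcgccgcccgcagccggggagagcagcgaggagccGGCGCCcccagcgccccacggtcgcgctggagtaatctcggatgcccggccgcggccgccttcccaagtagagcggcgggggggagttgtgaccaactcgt
Ltbp1: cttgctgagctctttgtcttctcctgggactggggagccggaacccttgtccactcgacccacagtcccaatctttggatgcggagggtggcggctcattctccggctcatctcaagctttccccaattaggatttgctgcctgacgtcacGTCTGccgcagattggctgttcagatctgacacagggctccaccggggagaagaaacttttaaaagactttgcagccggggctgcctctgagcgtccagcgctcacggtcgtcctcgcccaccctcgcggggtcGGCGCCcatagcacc
Ltbp2: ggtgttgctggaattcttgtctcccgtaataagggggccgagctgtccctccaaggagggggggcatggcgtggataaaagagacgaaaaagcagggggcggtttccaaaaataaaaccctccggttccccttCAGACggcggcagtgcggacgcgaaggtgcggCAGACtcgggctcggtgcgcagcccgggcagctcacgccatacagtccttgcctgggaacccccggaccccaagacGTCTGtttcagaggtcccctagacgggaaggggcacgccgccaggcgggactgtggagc
Bmp4 held SMAD boxes that began 200 and 35 bases before the start. Nog held a SMAD box 198 bases and a BMP element 51 bases before it. Ltbp1 held a SMAD box 99 bases before the start and a BMP element at base 36 after it, and Ltbp2 held 3 SMAD boxes, at 117, 85 and 9 bases before it. Of the 63 symbols, 51 matched the RefSeq promoter table and 48 had a single entry there. A SMAD box stood in 39.6% of these 48 windows and in 50.1% of the 33469 promoters of the table, and a BMP element in 33.3% against 11%. A SMAD box stood in 9 of the 15 windows of DEGs lower in Obese rats and in 0 of the 3 of DEGs higher in Obese rats. A BMP element stood in 6 of the 15 and 2 of the 3. The BMP element holds only G and C, and the GC share of the 48 windows ran from 30% (Bmpr1a) to 84.3% (Inhbb). The windows were not matched to the other promoters for GC share. These letters were counted as a description and say nothing of binding.

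Of the TGF-beta ligands, Tgfb1 rose in Obese rats, Tgfb2 fell and Tgfb3 differed little. Tgfb1 (chromosome 1 of rn6, 82480195 to 82497199) encodes the form made in many tissues and by macrophages. It was at 112, 106, 138, 139 and 129.7 CPM in Obese rats, against 40.5, 43.4, 48.6, 51.2 and 46.0 CPM in Lean rats. All 5 Obese rats lay above all 5 Lean rats, and the log2 fold change was 1.44 ± 0.10 (adjusted p = 1.0e-09). Tgfb1 was at 123, 98.6, 85.6, 88.2 and 110.2 CPM in Cmpd 1 rats, against 141, 152, 129, 133 and 121 CPM in Food matched rats. Only Cmpd 1 rat 1 reached the lowest Food matched rat, and the log2 fold change was −0.42 ± 0.10 (adjusted p = 0.0042), which is under the fold threshold. Cmpd 1 rats still lay far above Lean rats, at 1.14 ± 0.10 (adjusted p = 5.2e-08).

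Leukocyte and macrophage markers moved with Tgfb1. Of 10 such markers, 7 rose in Obese against Lean rats and 6 fell with Cmpd 1 against Food matched rats, and all 10 were above 0 in every library. Their summed level was 2563 to 3698 CPM in Cmpd 1 rats, 3831 to 6847 CPM in Food matched rats, 3571 to 5123 CPM in Obese rats and 1454 to 1857 CPM in Lean rats. Their part in the Tgfb1 difference was not tested.

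Tgfb2 was at 13.3, 13.3, 10.1, 7.67 and 9.89 CPM in Obese rats, against 20.9, 20.1, 16.1, 19.6 and 15.3 CPM in Lean rats. The groups did not overlap, and the log2 fold change was −0.76 ± 0.16 (adjusted p = 5.1e-04). With Cmpd 1 the difference from Food matched rats was small, at 0.11 ± 0.16 (adjusted p = 0.7). Tgfb3 was at 27.7, 37.0, 33.8, 35.9 and 33.0 CPM in Cmpd 1 rats, against 36.2, 57.0, 52.5, 54.8 and 41.8 CPM in Food matched rats. Of the 5 Cmpd 1 rats, 4 lay below the lowest Food matched rat and rat 2 just above it, and the log2 fold change of −0.53 ± 0.13 (adjusted p = 0.0052) was under the fold threshold. Tgfb3 passed the threshold without Food matched rat 1, at −0.62, and without the 5 libraries. Tgfb3 in Obese against Lean rats was at −0.01 ± 0.13 (adjusted p = 0.94).

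BMP ligands were the group with the most decreases in Obese rats: of 8 tested, 6 fell, none rose, and Bmp2 and Bmp6 were not called. The median log2 fold change of the 8 was −1.15. Bmp4 (chromosome 15 of rn6, 20776054 to 20822740) was 1 of the 6. It was at 5.00, 8.59, 5.09, 4.40 and 5.45 CPM in Obese rats, against 34.2, 24.3, 33.1, 26.9 and 26.6 CPM in Lean rats. The lowest Lean rat was well above the highest Obese rat, and the log2 fold change was −2.35 ± 0.18 (adjusted p = 2.8e-09). Bmp4 was at 3.45, 5.56, 5.85, 7.81 and 5.03 CPM in Cmpd 1 rats, against 4.31, 3.97, 4.51, 3.98 and 4.82 CPM in Food matched rats. These groups overlapped, at 0.35 ± 0.18 (adjusted p = 0.19), and Cmpd 1 rats were below Lean rats at −2.40 ± 0.18 (adjusted p = 1.0e-08).

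Bmp7, known for promoting brown fat differentiation in mice, was at 1.36, 2.09, 1.19, 1.14 and 0.970 CPM in Obese rats, against 17.0, 14.9, 7.53, 9.03 and 10.1 CPM in Lean rats. Every Obese rat was below every Lean rat, and this was the largest decrease among the 55, at −3.12 ± 0.50 (adjusted p = 3.0e-05). Bmp7 was at 0.817, 5.71, 2.69, 4.07 and 3.95 CPM in Cmpd 1 rats, against 1.33, 5.67, 1.07, 0.930 and 1.17 CPM in Food matched rats. Both of these groups spread widely: Cmpd 1 rat 1 was as low as most Food matched rats, and Food matched rat 2 was as high as the highest Cmpd 1 rat. The log2 fold change was 0.74 ± 0.47 (adjusted p = 0.29), and without Food matched rat 2 it was 1.62, a DEG with adjusted p = 0.0073. That library also stood apart within its group in markers of other cells. Its summed level of 6 lymph node markers was 23.1 CPM, against at most 4.20 CPM in the other Food matched rats. Lean rats held 13.6 to 57.4 CPM of these markers. The progenitor markers Pi16 and Dpp4 were at 274 and 20.2 CPM in Food matched rat 2. Of the same list, Dcn was highest of the group in this rat at 1406 CPM. Col1a1 and Col3a1 were lowest in it, at 1817 and 6002 CPM. The 10 progenitor and fibroblast markers together summed to 10317 CPM, the lowest of the Food matched rats. The part of these markers in its Bmp7 level was not tested.

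Bmp3, an atypical member that opposes BMP signals in bone, was at 26.5, 33.1, 23.1, 20.5 and 27.3 CPM in Obese rats, against 48.6, 72.6, 59.6, 53.6 and 71.3 CPM in Lean rats. The groups were apart, and the log2 fold change was −1.23 ± 0.21 (adjusted p = 5.8e-05). Bmp3 was at 13.8, 34.6, 30.5, 32.2 and 28.3 CPM in Cmpd 1 rats, against 16.3, 24.5, 13.4, 17.1 and 25.4 CPM in Food matched rats. Of the Cmpd 1 rats, 4 were above all Food matched rats and rat 1 was near the lowest. The log2 fold change of 0.52 ± 0.21 (adjusted p = 0.078) was not called. It became a DEG without Cmpd 1 rat 1, without Food matched rat 5 or without the 5 libraries, with a largest value of 0.70.

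Bmp5 was at 2.02, 1.76, 2.71, 1.41 and 0.808 CPM in Obese rats, against 3.29, 3.45, 5.06, 2.87 and 3.53 CPM in Lean rats. Every Obese rat was below every Lean rat, at −1.06 ± 0.27 (adjusted p = 0.0029). Bmp5 was at 1.23, 1.51, 2.25, 1.19 and 1.72 CPM in Cmpd 1 rats, against 0.939, 0.660, 0.678, 0.807 and 1.46 CPM in Food matched rats. These groups overlapped through Food matched rat 5, and the log2 fold change of 0.81 ± 0.28 (adjusted p = 0.045) lost its call in 10 of 18 alternatives, among them limma-voom and leaving out any 1 of Food matched rats 1, 2, 3 and 4 or Cmpd 1 rats 2, 3 and 5. Its adjusted p reached 0.13. Cmpd 1 rats were lower than Lean rats, with a log2 fold change of −1.20.

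Bmp8a and Bmp15 were near the limit of detection. Bmp8a was at 0.0731, 0.0171, 0, 0.0181 and 0.0588 CPM in Obese rats, against 0.157, 0.212, 0, 0.218 and 0.153 CPM in Lean rats. Bmp15, known as an oocyte growth factor, was at 0.219, 0.308, 0.542, 0.433 and 0.309 CPM in Obese rats, against 1.14, 0.778, 0.443, 0.655 and 0.428 CPM in Lean rats. Both overlapped between the groups. Bmp8a had a log2 fold change of −2.04 ± 0.75 (adjusted p = 0.03) and Bmp15 of −0.92 ± 0.36 (adjusted p = 0.038). Each call was lost in 8 alternatives, including without the 5 libraries and without Lean rat 2 or 4, for Bmp8a also without Obese rat 2, 3 or 4 and for Bmp15 without Lean rat 1 or Obese rat 1, 2 or 5. Bmp2 ranged over 11.2 to 12.9 CPM in Obese and 9.66 to 13.3 CPM in Lean rats. It was at 12.7 to 16.1 CPM in Cmpd 1 and 9.83 to 14.1 CPM in Food matched rats, at 0.29 ± 0.10 (adjusted p = 0.038), under the fold threshold.

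**Figure D2:**
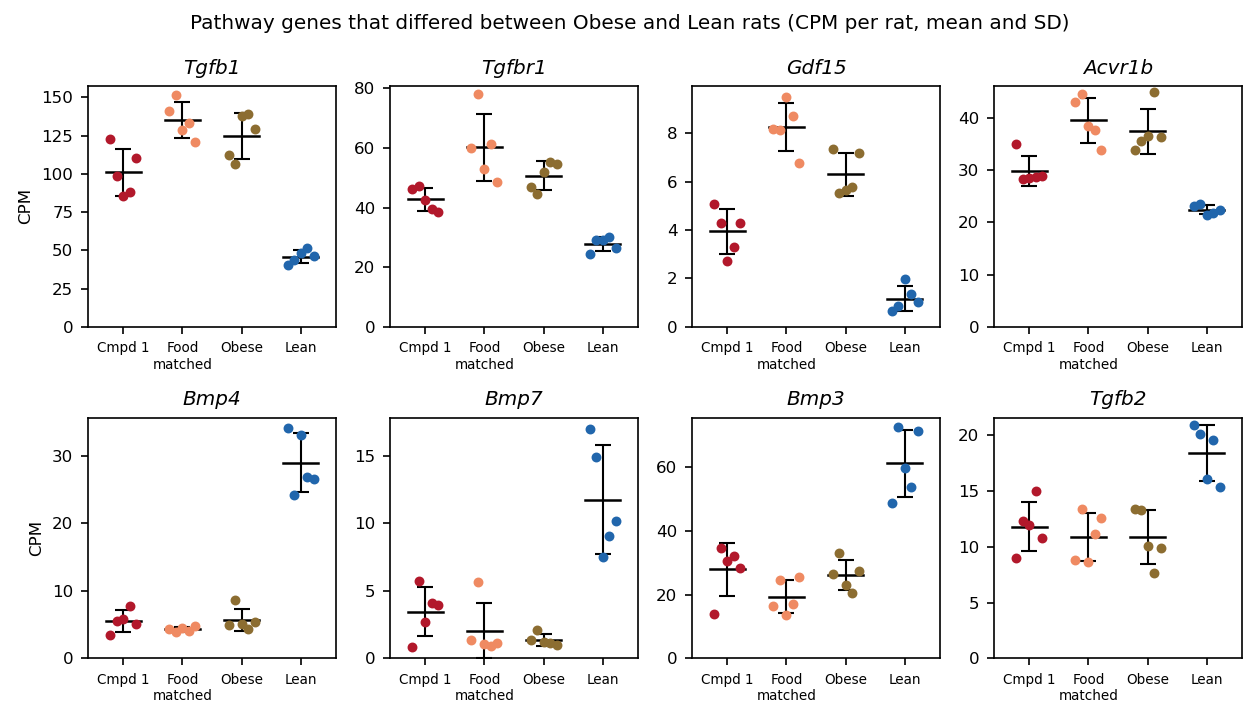
CPM of 8 pathway genes in each rat (points) with the group mean and SD (bars) for Cmpd 1, Food matched, Obese and Lean rats. In the upper row the Lean rats are the lowest (Tgfb1 106 to 139 CPM in Obese and 40.5 to 51.2 CPM in Lean rats), and in the lower row they are the highest (Bmp4 4.40 to 8.59 CPM in Obese and 24.3 to 34.2 CPM in Lean rats).

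Among the activin subunits, Inhba, which forms activin A, fell with Cmpd 1, and Inhbb was not called in any comparison. Inhba was at 0.650, 0.603, 0.708, 0.521 and 0.580 CPM in Cmpd 1 rats, against 2.58, 1.09, 1.86, 1.09 and 0.889 CPM in Food matched rats. It was at 1.53, 0.735, 2.81, 4.82 and 0.940 CPM in Obese rats, against 0.979, 1.17, 1.57, 1.28 and 1.53 CPM in Lean rats. The Cmpd 1 rats were close together and all below every rat of the other groups, while Obese rats varied more than any other group. Cmpd 1 versus Food matched was at −1.28 ± 0.41 (adjusted p = 0.028), and Cmpd 1 versus Obese at −1.81 ± 0.41 (adjusted p = 0.0075). With limma-voom both calls were lost, as was the first without any 1 of Food matched rats 1 and 3 and Cmpd 1 rats 2, 4 and 5, where its adjusted p reached 0.11. Cmpd 1 versus Lean was at −1.08 ± 0.41 (adjusted p = 0.041), a call lost in 10 of 18 alternatives. Obese versus Lean, at 0.73 ± 0.39 (adjusted p = 0.13), was not called except without Obese rat 2. Inhbb was at 131 ± 13.9 CPM in Cmpd 1 and 116 ± 14.7 CPM in Food matched rats (SD, n = 5 each), and at 111 ± 11.0 CPM in Obese and 132 ± 20.02 CPM in Lean rats. Inha, the inhibin alpha subunit, was at 0.686 to 1.21 CPM in Obese and 0.311 to 1.47 CPM in Lean rats.

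Of 7 tested GDF ligands, Gdf15 and Gdf3 rose and Gdf10 fell in Obese rats, and Gdf15 and Gdf3 fell with Cmpd 1. Gdf15 (chromosome 16 of rn6, 20555395 to 20557978) is a circulating stress-induced cytokine that acts on the hindbrain to lower food intake. It was at 7.35, 5.54, 5.65, 5.78 and 7.17 CPM in Obese rats, against 0.646, 0.848, 1.98, 1.34 and 1.02 CPM in Lean rats. It was at 5.05, 4.31, 2.73, 3.31 and 4.29 CPM in Cmpd 1 rats, against 8.17, 8.14, 9.50, 8.71 and 6.76 CPM in Food matched rats. Neither pair overlapped, with every Cmpd 1 rat below every Food matched and every Obese rat. Gdf15 differed by 2.43 ± 0.22 (adjusted p = 2.5e-08) on the log2 scale between Obese and Lean rats and −1.06 ± 0.21 (adjusted p = 0.0012) between Cmpd 1 and Food matched rats. Cmpd 1 rats stayed above Lean rats, at 1.76 ± 0.22 (adjusted p = 3.7e-06). Against Obese rats the decrease was −0.67 ± 0.21 (adjusted p = 0.038), a call lost in 9 of 18 alternatives, among them leaving out any 1 of Obese rats 1, 3, 4 and 5 and Cmpd 1 rats 2 to 5. With the replicate block it was also lost.

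Gdf3, a ligand linked to fat storage in mice, was at 0.121, 0.117, 0.146, 0.0306 and 0.105 CPM in Cmpd 1 rats, against 0.791, 0.440, 0.288, 0.356 and 0.315 CPM in Food matched rats. It was at 0.263, 0.257, 0.734, 0.397 and 0.220 CPM in Obese rats, against 0.0391, 0.184, 0.0554, 0.0839 and 0.0764 CPM in Lean rats. Both pairs were apart, at −2.004 ± 0.45 (adjusted p = 0.0031) between Cmpd 1 and Food matched rats and 2.02 ± 0.45 (adjusted p = 9.3e-04) between Obese and Lean rats, with −1.78 ± 0.45 (adjusted p = 0.014) between Cmpd 1 and Obese rats. In the annotation of the count table Gdf3 overlaps the glucose transporter gene Slc2a3 on the same strand over 4995 bases, so reads of these genes may not have been told apart and its values are uncertain.

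Gdf10 was at 9.56, 16.8, 16.1, 9.10 and 12.7 CPM in Obese rats, against 31.6, 28.1, 15.6, 16.7 and 17.1 CPM in Lean rats. The groups overlapped, and the log2 fold change of −0.76 ± 0.31 (adjusted p = 0.046) was lost in 9 of 18 alternatives, with limma-voom, with DESeq2 and without any 1 of Lean rats 1 and 2 and Obese rats 1, 4 and 5. Without the 5 libraries it was −0.22. Gdf5, a cartilage and joint factor, was at 5.75, 5.93, 6.66, 7.47 and 7.36 CPM in Cmpd 1 rats, against 5.25, 3.10, 5.08, 4.73 and 4.28 CPM in Food matched rats. It was at 3.34 to 4.55 CPM in Obese rats and 4.54 to 8.197 CPM in Lean rats. Every Cmpd 1 rat was above every Food matched and every Obese rat. The log2 fold change was 0.69 ± 0.16 (adjusted p = 0.0079) between Cmpd 1 and Obese rats, a DEG, and 0.56 ± 0.16 (adjusted p = 0.013) between Cmpd 1 and Food matched rats, just under the fold threshold and past it in 5 alternatives. For Obese versus Lean it was −0.55 ± 0.16 (adjusted p = 0.0061), also past the threshold in 5.

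Type I receptors moved both ways in Obese rats, 2 higher and 3 lower of 7 tested. Tgfbr1, the type I receptor of TGF-beta, was at 46.8, 44.6, 52.0, 55.4 and 54.7 CPM in Obese rats, against 24.3, 29.2, 29.0, 30.2 and 26.3 CPM in Lean rats. Acvr1b, a type I receptor of activin, was at 33.9, 35.5, 36.5, 44.9 and 36.3 CPM in Obese rats, against 23.0, 23.5, 21.4, 21.9 and 22.4 CPM in Lean rats. Neither overlapped between the groups. These 2 receptors were higher in Obese rats, at log2 fold changes of 0.87 ± 0.10 (adjusted p = 6.9e-07) for Tgfbr1 and 0.74 ± 0.08 (adjusted p = 2.5e-07) for Acvr1b. With Cmpd 1 against Food matched rats both were lower but under the fold threshold, Tgfbr1 at −0.49 ± 0.10 (adjusted p = 0.0018) and Acvr1b at −0.41 ± 0.08 (adjusted p = 0.0013). Tgfbr1 was at 46.2, 47.1, 42.7, 39.4 and 38.5 CPM in Cmpd 1 rats, against 59.9, 78.1, 52.8, 61.4 and 48.7 CPM in Food matched rats. These groups did not overlap. Cmpd 1 rats were above Lean rats for Tgfbr1, at 0.62 ± 0.10 (adjusted p = 7.2e-05), a call lost without Lean rat 1 and without the 5 libraries.

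Acvr1c (ALK7), by its symbol a further activin type I receptor, is adipocyte-enriched and restrains lipolysis in mice. It moved the other way from Tgfbr1 and Acvr1b, so the activin receptors did not rise together in Obese rats. It lies on chromosome 3 of rn6, 44270653 to 44342355. It was at 27.1, 35.1, 23.7, 26.8 and 35.6 CPM in Obese rats, against 67.2, 98.5, 93.6, 82.0 and 91.3 CPM in Lean rats. It was at 37.9, 35.8, 48.4, 54.3 and 39.4 CPM in Cmpd 1 rats, against 19.9, 25.998, 27.9, 25.8 and 30.1 CPM in Food matched rats. Neither pair overlapped, and the Cmpd 1 rats lay between Food matched and Lean rats. On the log2 scale Acvr1c differed by −1.54 ± 0.14 (adjusted p = 1.9e-08) between Obese and Lean rats, 0.73 ± 0.14 (adjusted p = 8.9e-04) between Cmpd 1 and Food matched rats and −1.01 ± 0.14 (adjusted p = 8.8e-06) between Cmpd 1 and Lean rats. Of 10 adipocyte markers, 6 fell and 1 rose in Obese rats, with a summed level of 20838 to 24787 CPM, against 25386 to 29675 CPM in Lean rats. Against Food matched rats 2 rose and none fell in Cmpd 1 rats, 1 of them, Pnpla2, on 10 to 66 reads per library, and the sums overlapped at 20777 to 22292 CPM in Cmpd 1 and 19290 to 24516 CPM in Food matched rats. The part of adipocyte content in these differences was not tested.

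Acvr1 (ALK2), a BMP type I receptor, was at 29.4, 33.3, 30.6, 26.7 and 31.8 CPM in Obese rats, against 42.7, 43.6, 49.6, 46.8 and 47.1 CPM in Lean rats. The groups were apart, at −0.60 ± 0.06 (adjusted p = 7.5e-08), but the fold of 1.51 sat just inside the threshold and fell under it without any 1 of Lean rats 3, 4 and 5 and Obese rats 1 and 4. With Cmpd 1 it was at 0.29 ± 0.06 (adjusted p = 0.0019) against Food matched rats. Bmpr1b, a BMP type I receptor of low level in this tissue, was at 0.106, 0.302, 0.125, 0.214 and 0.264 CPM in Cmpd 1 rats, against 0.589, 0.569, 0.356, 0.397 and 0.352 CPM in Food matched rats. It was at 0.351, 0.342, 0.140, 0.397 and 0.411 CPM in Obese rats, against 0.763, 1.97, 2.05, 2.18 and 1.85 CPM in Lean rats. Each pair was apart and each difference was a decrease, −1.16 ± 0.35 (adjusted p = 0.021) between Cmpd 1 and Food matched rats and −2.42 ± 0.33 (adjusted p = 4.0e-06) between Obese and Lean rats. The first was lost in 5 of 18 alternatives, with limma-voom and without any 1 of Food matched rats 1 and 2 and Cmpd 1 rats 1 and 3, where its adjusted p reached 0.073. Cmpd 1 versus Lean was at −3.11 ± 0.35 (adjusted p = 8.6e-07). Bmpr1a and Acvrl1, which carry BMP signals in many cells and in endothelium, were no DEG in any comparison, with log2 fold changes in Obese against Lean rats of −0.25 for Bmpr1a and 0.04 for Acvrl1.

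None of the 4 type II receptors was a DEG in any comparison. Tgfbr2 was at 249.6 ± 14.04 CPM in Obese and 305 ± 19.2 CPM in Lean rats (SD, n = 5 each). These rats did not overlap, and the log2 fold change of −0.29 ± 0.07 (adjusted p = 0.0011) was under the fold threshold. It was at 289 ± 28.2 CPM in Cmpd 1 and 255 ± 16.3 CPM in Food matched rats. Acvr2a, a type II receptor of activin, was at −0.27 ± 0.09 (adjusted p = 0.013) in Obese versus Lean and 0.25 ± 0.09 (adjusted p = 0.039) in Cmpd 1 versus Food matched rats. Bmpr2, the BMP type II receptor, was at −0.17 and Acvr2b at −0.01 on the log2 scale in Obese versus Lean rats.

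Tgfbr3 (betaglycan), the co-receptor that presents TGF-beta and binds inhibin, was at 202, 227, 209, 196 and 216 CPM in Obese rats, against 301, 349.5, 305, 332 and 319.6 CPM in Lean rats. The groups were apart, at −0.61 ± 0.10 (adjusted p = 2.4e-05), a fold of 1.53 that fell under the threshold without Lean rat 2, without Obese rat 4 and without the 5 libraries. With Cmpd 1 it was higher than in Obese rats, at 0.49 ± 0.10 (adjusted p = 0.0033), under the fold threshold. Bambi, a decoy receptor with no kinase, was at −0.42 ± 0.13 (adjusted p = 0.0091) in Obese versus Lean rats.

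The SMAD transcripts differed little. Smad1, Smad2, Smad3, Smad4 and Smad5 were no DEG in any comparison, and their log2 fold changes in Obese versus Lean rats were −0.11, 0.08, −0.04, 0.00 and −0.02. In Cmpd 1 versus Food matched rats they were 0.06, 0.01, −0.02, 0.04 and 0.03, with standard errors of 0.04 to 0.06. Smad4, the shared partner, was at 50.1 ± 0.852 CPM in Cmpd 1 and 48.6 ± 1.49 CPM in Food matched rats, and at 50.4 ± 2.44 CPM in Obese and 50.3 ± 2.27 CPM in Lean rats (SD, n = 5 each). Smad6, the inhibitory SMAD of the BMP branch, was at 7.42, 8.64, 7.25, 5.78 and 6.02 CPM in Obese rats, against 11.1, 10.5, 8.99, 9.70 and 9.52 CPM in Lean rats. Every Obese rat was below every Lean rat, at −0.50 ± 0.12 (adjusted p = 0.0011), under the fold threshold, and Cmpd 1 versus Food matched was at 0.36 ± 0.12 (adjusted p = 0.027). Smad7, which inhibits both branches, was at −0.14 ± 0.10 (adjusted p = 0.28) and 0.07 ± 0.10 (adjusted p = 0.69) in the same comparisons.

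The 4 latent TGF-beta binding proteins differed from each other. Ltbp1 (chromosome 6 of rn6, 21203502 to 21600451) was at 39.9, 52.3, 52.9, 33.0 and 40.9 CPM in Obese rats, against 180.3, 158, 159, 179.5 and 164 CPM in Lean rats. It was at 36.2, 65.0, 78.4, 79.0 and 64.9 CPM in Cmpd 1 rats, against 33.5, 62.9, 35.0, 31.7 and 34.6 CPM in Food matched rats. Obese and Lean rats were far apart, at −1.94 ± 0.20 (adjusted p = 1.0e-07). Of the Cmpd 1 rats, 4 were above all Food matched rats, rat 1 was within the Food matched range, and Food matched rat 2 stood above its group. The log2 fold change was 0.71 ± 0.19 (adjusted p = 0.012), and 0.94 without Food matched rat 2. Cmpd 1 rats were below Lean rats, at −1.38 ± 0.20 (adjusted p = 1.4e-05).

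Ltbp2, which binds fibrillin and no TGF-beta, went the other way with Cmpd 1. It lies on the same chromosome, 108500112 to 108596569 of rn6. It was at 2.07, 1.69, 2.02, 1.62 and 2.39 CPM in Cmpd 1 rats, against 7.25, 5.94, 7.45, 7.32 and 3.87 CPM in Food matched rats. It was at 2.75, 6.60, 4.65, 2.98 and 2.92 CPM in Obese rats, against 4.29, 9.19, 3.23, 2.87 and 3.85 CPM in Lean rats. Every Cmpd 1 rat was below every rat of the other groups, whereas Obese and Lean rats overlapped, at −0.24 ± 0.29 (adjusted p = 0.52). Ltbp2 differed on the log2 scale by −1.69 ± 0.30 (adjusted p = 5.7e-04) between Cmpd 1 and Food matched rats, −1.02 ± 0.30 (adjusted p = 0.029) between Cmpd 1 and Obese rats and −1.26 ± 0.30 (adjusted p = 0.0023) between Cmpd 1 and Lean rats. The call against Obese rats was lost with limma-voom and without any 1 of Obese rats 2 and 3 and Cmpd 1 rats 2 and 4, and that against Lean rats without the 5 libraries. Both Ltbp promoters printed above hold SMAD boxes, as did 50.1% of the 33469 promoters of the table.

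Ltbp3 was at 192, 206, 190.4, 224 and 226 CPM in Cmpd 1 rats, against 141, 155, 157, 172 and 178 CPM in Food matched rats. These groups were apart, and the log2 fold change was 0.37 ± 0.07 (adjusted p = 6.0e-04), under the fold threshold, while Obese versus Lean was at −0.02 ± 0.07 (adjusted p = 0.82). Ltbp4 was at 93.3, 104, 98.3, 75.4 and 82.7 CPM in Obese rats, against 186, 203, 119.7, 130.0 and 153 CPM in Lean rats. The groups did not overlap, at −0.80 ± 0.15 (adjusted p = 1.1e-04), but Lean rats 1 and 2, the libraries with muscle transcripts, were the highest. Without the 5 libraries the log2 fold change was −0.39 and the call was lost.

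**Figure D3:**
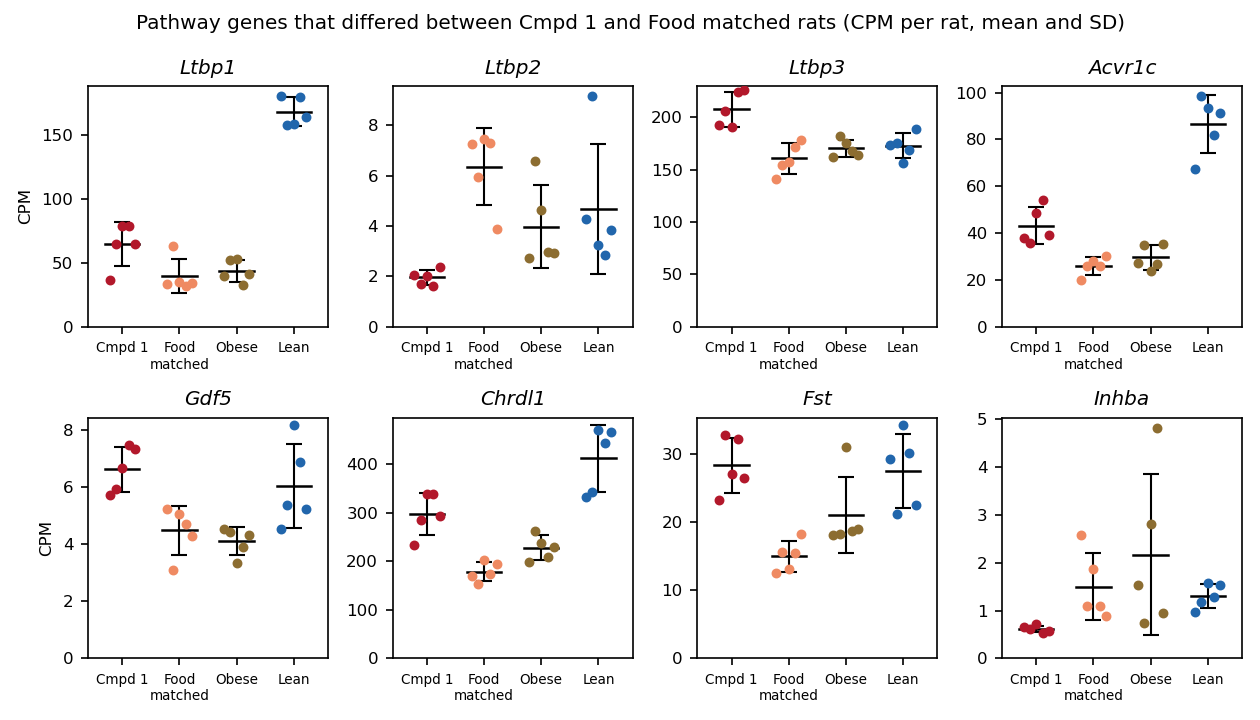
CPM of 8 pathway genes in each rat (points) with the group mean and SD (bars) for Cmpd 1, Food matched, Obese and Lean rats. Ltbp2 and Inhba were lowest in Cmpd 1 rats (1.62 to 2.39 and 0.521 to 0.708 CPM), while Acvr1c and Chrdl1 in Cmpd 1 rats lay above Food matched rats and their means below those of Lean rats.

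Secreted antagonists that were DEGs fell in Obese rats, as Chrd, Chrdl1 and Nog did, and rose with Cmpd 1 against Food matched rats, as Chrdl1 and Fst did, with no DEG the other way. Chrdl1 was at 234, 285, 338, 339.8 and 293 CPM in Cmpd 1 rats, against 169, 154, 202, 174 and 194 CPM in Food matched rats. It was at 198, 263, 238, 209.7 and 230.1 CPM in Obese rats, against 333, 344, 472, 445 and 467 CPM in Lean rats. Neither pair overlapped. Chrdl1 differed by 0.74 ± 0.12 (adjusted p = 2.5e-04) on the log2 scale between Cmpd 1 and Food matched rats and −0.85 ± 0.12 (adjusted p = 3.8e-06) between Obese and Lean rats. Fst (follistatin), which neutralises activins, was at 23.2, 32.7, 27.1, 32.2 and 26.5 CPM in Cmpd 1 rats, against 12.5, 15.7, 13.2, 15.4 and 18.2 CPM in Food matched rats. It was at 18.1, 18.2, 31.03, 18.6 and 19.0 CPM in Obese rats, against 29.3, 21.2, 34.2, 30.2 and 22.5 CPM in Lean rats. Every Cmpd 1 rat was above every Food matched rat, at 0.92 ± 0.16 (adjusted p = 4.7e-04), whereas Obese and Lean rats overlapped, at −0.39 ± 0.16 (adjusted p = 0.048), under the fold threshold. The activin subunit Inhba was thus lower and the activin antagonist Fst higher in Cmpd 1 than in Food matched rats, though the Inhba call was lost in 6 of 18 alternatives. Inhba was at 0.240 against 0.588 CPM per kilobase in these groups. Inhbb, the activin subunit of far higher level, was not called, at 42.1 against 37.1 CPM per kilobase.

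Chrd (chordin) was at 4.57, 5.11, 4.74, 4.12 and 3.72 CPM in Obese rats, against 10.3, 9.39, 6.59, 7.69 and 8.07 CPM in Lean rats. Nog, a BMP antagonist, was at 0.819, 0.684, 0.857, 0.523 and 0.617 CPM in Obese rats, against 1.29, 1.70, 1.29, 1.19 and 1.57 CPM in Lean rats. Both were lower in every Obese than in every Lean rat. The log2 fold change was −0.92 ± 0.12 (adjusted p = 3.8e-06) for Chrd and −1.01 ± 0.22 (adjusted p = 7.3e-04) for Nog, whose call was lost without the 5 libraries at adjusted p = 0.052. With Cmpd 1 against Food matched rats Chrd was at 0.53 ± 0.13 (adjusted p = 0.0045), under the fold threshold, and Nog at 0.24 ± 0.23 (adjusted p = 0.51). Cmpd 1 versus Lean was at −1.36 ± 0.23 (adjusted p = 7.3e-05) for Nog. Fstl3 was at 0.34 ± 0.08 (adjusted p = 0.0023) in Obese versus Lean and 0.31 ± 0.08 (adjusted p = 0.011) in Cmpd 1 versus Food matched rats, under the fold threshold in both. Fstl1 was no DEG in any comparison. Grem1, a BMP antagonist, was at 0.409, 0.205, 0.105, 0.217 and 0.323 CPM in Obese rats, against 0.0391, 0.537, 0, 0.0168 and 0 CPM in Lean rats. Only Lean rat 2, a library with muscle and gland transcripts, overlapped the Obese rats. The log2 fold change between Obese and Lean rats was 1.02 ± 0.79 (adjusted p = 0.31), and 4.06 without Lean rat 2, a DEG with adjusted p = 8.2e-05, on few reads.

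Of the remaining genes, Tgfbi, a matrix protein first found as a TGF-beta-induced transcript, was at 90.7, 110.4, 101, 87.5 and 79.7 CPM in Obese rats, against 236, 217, 183, 202 and 218 CPM in Lean rats. Every Obese rat was below every Lean rat, at −1.17 ± 0.13 (adjusted p = 4.4e-07), the opposite direction to Tgfb1. Cmpd 1 versus Lean was at −0.65 ± 0.13 (adjusted p = 6.0e-04), a call lost without Cmpd 1 rat 1 and without the 5 libraries. Bmp1, a protease that cleaves chordin and procollagen, was at 75.9 ± 5.42 CPM in Obese and 59.3 ± 5.89 CPM in Lean rats (SD, n = 5 each), at 0.36 ± 0.07 (adjusted p = 2.1e-04), under the fold threshold.

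The comparisons that set the obese groups against Obese or Lean rats share libraries with those above. Cmpd 1 versus Obese gave 6 DEGs among the 55 (10.9%, against 3.53% of all genes), among them Gdf5 higher and Gdf15, Gdf3, Inhba and Ltbp2 lower. Acvr1c, at 0.54 ± 0.14 (adjusted p = 0.014), was just under the fold threshold and passed it in 4 of 18 alternatives, and Fst, at 0.43 ± 0.16 (adjusted p = 0.073), passed it without Obese rat 3, at 0.61. Cmpd 1 versus Lean gave 17 (30.9%, against 16.6% of all genes), with Gdf15, Tgfb1 and Tgfbr1 higher and 14 lower. Among the 14 were Acvr1c, Bmp3, Bmp4, Bmp5, Bmp7, Bmp15, Bmpr1b, Inhba, Ltbp1, Ltbp2, Nog, Tgfb2 and Tgfbi. Of these, Bmp7, Bmp15, Ltbp2 and Tgfbi lost their call without the 5 libraries and Tgfb2 without Cmpd 1 rat 1. Food matched versus Obese gave 0 DEGs among the 55 with edgeR, limma-voom and DESeq2, where edgeR called 0% of all genes, limma-voom 0.0566% and DESeq2 0.309%. The smallest adjusted p among the 55 was 0.18 in edgeR. Without the 5 libraries Bmp5 and Fst were lower in Food matched than in Obese rats, and without Food matched rat 5 Bmp5 alone. Bmp5 was at 0.939, 0.660, 0.678, 0.807 and 1.46 CPM in Food matched rats, against 2.02, 1.76, 2.71, 1.41 and 0.808 CPM in Obese rats.

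Cmpd 1 rat 1 stood apart in its group. It was the lowest of the 5 Cmpd 1 rats for 20 of the 55 genes, against 8 to 10 for each of the others. Without it, Cmpd 1 versus Food matched gave 13 DEGs among the 55, Cmpd 1 versus Obese 9 and Cmpd 1 versus Lean 13. Bmp7, Ltbp1 and Tgfbi were then DEGs higher in Cmpd 1 than in Obese rats, at 1.61, 0.71 and 0.66 on the log2 scale. Shares of all genes called without this rat are not given here.

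Known target genes of the pathway and its other parts were read from lists of 68 genes that are not among the 64, of which 66 were found and 61 tested. In Obese versus Lean rats 14 of the 61 rose and 12 fell, which is 42.6% against 22.3% of all genes. In Cmpd 1 versus Food matched rats 1 rose and 6 fell, which is 11.5% against 6.19% of all genes, where 272 rose and 820 fell. Of 12 TGF-beta target genes, 6 rose in Obese rats, among them Ctgf, Cthrc1, Fn1, Postn and Tgif1, and Cyr61 fell. With Cmpd 1 against Food matched rats 4 fell, among them Ctgf, Cthrc1 and Fn1. The median log2 fold change of the 12 was 0.59 between Obese and Lean rats and −0.43 between Cmpd 1 and Food matched rats.

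Ctgf, a matricellular protein of fibrosis, was at 38.6, 39.2, 49.2, 39.8 and 47.4 CPM in Cmpd 1 rats, against 183, 91.7, 178, 134 and 93.9 CPM in Food matched rats. It was at 79.1, 91.0, 70.8, 68.5 and 111 CPM in Obese rats, against 40.0, 46.9, 32.7, 43.9 and 36.2 CPM in Lean rats. The Cmpd 1 and Lean rats covered a similar range, and the log2 fold change was −1.67 ± 0.18 (adjusted p = 2.8e-05) between Cmpd 1 and Food matched rats and 1.07 ± 0.18 (adjusted p = 4.5e-05) between Obese and Lean rats. Cthrc1, a secreted collagen triple helix protein, was at −0.98 ± 0.21 (adjusted p = 0.0021) and 2.33 ± 0.22 (adjusted p = 3.4e-08) in the same comparisons, and Fn1 (fibronectin) at −0.63 ± 0.15 (adjusted p = 0.006) and 1.34 ± 0.16 (adjusted p = 5.8e-07). Cyr61, a relative of Ctgf, was at −0.69 ± 0.11 (adjusted p = 4.6e-05) in Obese versus Lean and −0.58 ± 0.11 (adjusted p = 0.0013) in Cmpd 1 versus Food matched rats, just under the fold threshold in the second. Pmepa1 and Skil, feedback regulators of SMAD signalling, were no DEG in any comparison, at 0.17 and 0.29 in Obese versus Lean rats.

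Of 7 tested BMP target genes, Id4 and Msx1 fell in Obese rats and none passed both thresholds with Cmpd 1. Id3, an inhibitor of bHLH transcription factors, was at 146, 144, 109.6, 136 and 127 CPM in Cmpd 1 rats, against 89.0, 93.5, 80.3, 99.7 and 128 CPM in Food matched rats. It was at 123, 124, 115, 95.0 and 103 CPM in Obese rats, against 137, 141, 175, 147 and 142 CPM in Lean rats. Cmpd 1 rats were mostly above Food matched rats, at 0.43 ± 0.11 (adjusted p = 0.007), and Obese rats all below Lean rats, at −0.40 ± 0.11 (adjusted p = 0.0044), both under the fold threshold. Id4 was at −0.74 ± 0.18 (adjusted p = 0.0018) and Msx1 at −0.93 ± 0.18 (adjusted p = 3.1e-04) between Obese and Lean rats, and at 0.58 ± 0.18 (adjusted p = 0.025) and 0.57 ± 0.19 (adjusted p = 0.031) between Cmpd 1 and Food matched rats. Id1, which responds early to BMPs, was at −0.38 ± 0.14 (adjusted p = 0.025) and −0.02 ± 0.14 (adjusted p = 0.95), and Id2 at 0.45 ± 0.10 (adjusted p = 7.5e-04) and −0.26 ± 0.10 (adjusted p = 0.055).

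**Figure D4:**
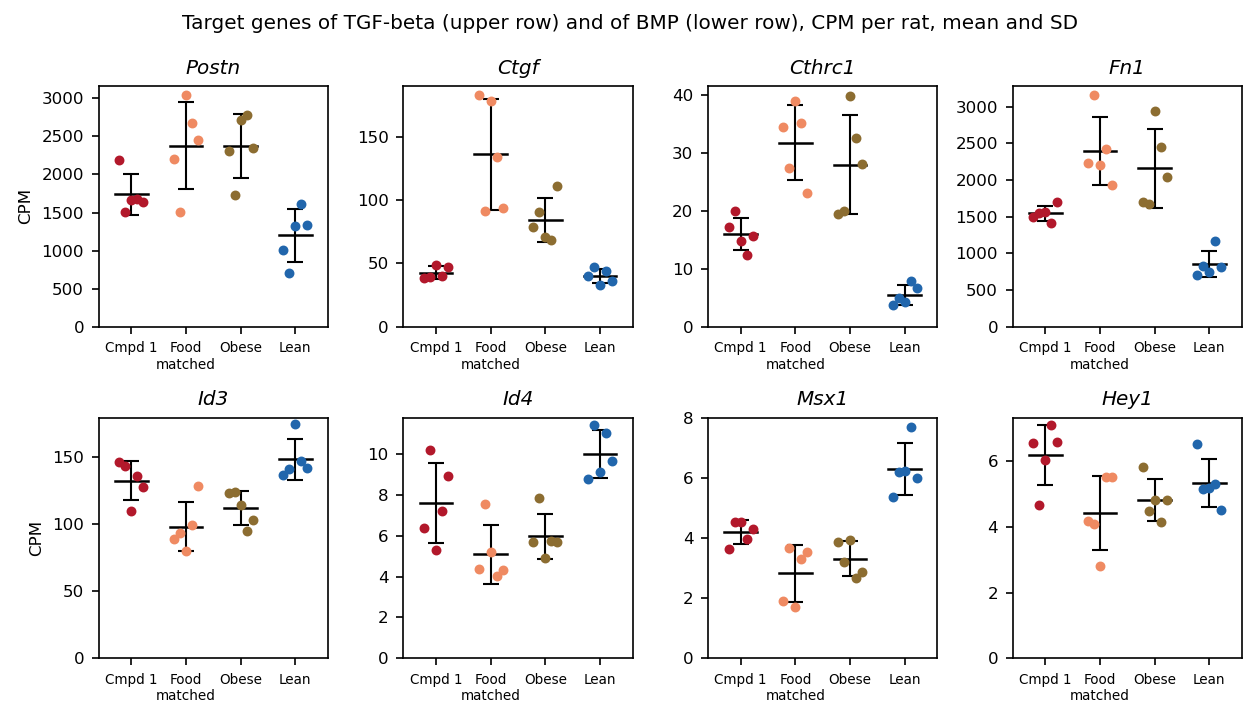
CPM of 4 TGF-beta target genes (upper row) and 4 BMP target genes (lower row) in each rat (points) with the group mean and SD (bars) for Cmpd 1, Food matched, Obese and Lean rats. Ctgf in Cmpd 1 rats (38.6 to 49.2 CPM) lies below all Food matched rats (91.7 to 183 CPM).

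Of 11 genes that release or hold latent TGF-beta, 3 rose and 1 fell in Obese rats and none was called with Cmpd 1 against Food matched rats. Itgav, the integrin alpha-V chain that activates latent TGF-beta, was at 0.64 ± 0.09 (adjusted p = 6.1e-06). Nrros, which holds latent TGF-beta on myeloid cells, was at 0.73 ± 0.08 (adjusted p = 1.0e-07) and Thbs1 (thrombospondin-1), an activator of latent TGF-beta, at 0.80 ± 0.17 (adjusted p = 4.3e-04). Itgb6, an epithelial integrin chain, fell at −3.34 ± 0.81 (adjusted p = 0.0019), with at most 0.290 CPM in every library but those of Lean rats 1 and 2, which held 1.72 and 3.99 CPM. Of 11 other secreted antagonists, Bgn, Bmper and Sost rose and Cer1, Dcn, Sostdc1 and Wfikkn2 fell in Obese rats. Sost, Cer1 and Sostdc1 rest on few reads, at most 17, 12 and 9 in any library of the obese groups. Bgn (biglycan), a matrix proteoglycan that binds TGF-beta, was at 541, 603, 543, 494 and 551 CPM in Cmpd 1 rats, against 756, 822, 778, 946 and 798 CPM in Food matched rats. It was at 718, 771, 997, 806 and 773 CPM in Obese rats, against 339, 343, 259, 326 and 289 CPM in Lean rats. Each pair was apart, at −0.59 ± 0.09 (adjusted p = 2.1e-04) and 1.39 ± 0.09 (adjusted p = 7.2e-10). Dcn (decorin), its relative, was at −0.65 ± 0.14 (adjusted p = 8.8e-04) between Obese and Lean rats. Of 11 SMAD regulators, Tob1, an antiproliferative protein that binds SMADs, was the only DEG, lower in Obese rats at −0.62 ± 0.12 (adjusted p = 1.7e-04) and higher with Cmpd 1 against Food matched rats at 0.77 ± 0.12 (adjusted p = 2.1e-04). Of 2 tested ligands outside the 64, Amh (anti-Müllerian hormone) was at 1.70 ± 0.21 (adjusted p = 1.5e-06) between Obese and Lean rats and −0.95 ± 0.21 (adjusted p = 0.0027) between Cmpd 1 and Food matched rats, and Mstn (myostatin) at −1.01 ± 0.39 (adjusted p = 0.04) between Obese and Lean rats. Mstn is a muscle hormone and was highest in Lean rats 1 and 2, the libraries with muscle transcripts, whose part was not tested. Of 7 tested receptors and co-receptors outside the 64, Cd109 rose and Amhr2 and Hfe2 fell in Obese rats. Hfe2 (hemojuvelin), a BMP co-receptor of muscle and liver, was at most 0.574 CPM in every library but those of Lean rats 1 and 2, which held 25.9 and 50.2 CPM.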

How the data were processed

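The authors deposited raw counts of reads per Ensembl gene for the 20 libraries, made from TruSeq stranded mRNA libraries with featureCounts and not normalised. The study's methods name rn6 and STAR v2.4.0h, the submitters' processing notes STAR 2.5.2, Subread 1.5.1 and GRCh38, a human build. Whether counting used strand is not given in the sources used here. After the study's methods, a gene at 0 in 10 or more of the 20 libraries was dropped, and 17653 of 32545 were tested. edgeR 4.0.16 (R 4.3.3) fitted 1 quasi-likelihood model of the 4 groups with TMM scaling and 16 residual degrees of freedom, first tested on simulated data. CPM use TMM-scaled library sizes. The standard errors of log2 fold changes were not fitted directly. Each was taken as the size of the log2 fold change over the square root of the F statistic of its test. limma 3.58.1, DESeq2 1.42.0, other scalings and filters, no fold threshold, a replicate block, and leaving libraries out were the alternatives. Every DEG among the 64 genes is named except 1, which like 1 gene of the target lists is not reported here beyond the counts, those with the smallest adjusted p per role are given per rat, and up to 4 of each further list are named. The genes and lists were chosen with earlier results of these data known. Each p-value sets a difference between group means of 5 rats against a spread between rats that the 4 groups share in the fit. Promoters come from RefSeq (GRCr8), while gene positions are those of the count table (rn6).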

Additional observations from a re-analysis of the deposited data

Results flagged for a closer look

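In 12 of 140 groups of 5 rats examined for 35 named genes, 1 rat lay far from the other 4 (a gap to its neighbour over 0.71 of the group's range, Dixon's critical value), where chance alone is expected to mark about 1 group in 20. Food matched rat 2 was high for Bmp7 at 5.67 CPM (next rat 1.33) and for Ltbp1 at 62.9 CPM (next 35.0). That library also held lymph node markers at a summed 23.1 CPM (13.6 to 57.4 CPM in Lean rats) and Pi16 at 274 CPM (next 132). Its 10 progenitor and fibroblast markers, Pi16 among them, summed to 10317 CPM, the lowest of the Food matched rats. Food matched rat 5 was high for Bmp2 at 14.1 CPM (next 10.9). Obese rat 2 was high for Bmp4 at 8.59 CPM (next 5.45). Obese rat 3 was high for Fst at 31.03 CPM (next 19.0) and low for Bmpr1b at 0.140 CPM (next 0.342). Obese rat 4, a library with gland transcripts, was high for Acvr1b at 44.9 CPM (next 36.5), and Obese rat 1 was low for Smad4 at 46.1 CPM (next 50.9). Cmpd 1 rat 1 was low for Tgfbi at 80.0 CPM (next 143) and high for Acvr1b at 34.9 CPM (next 28.8). Lean rat 2, a library with muscle transcripts, was high for Ltbp2 at 9.19 CPM (next 4.29), and Lean rat 1 was low for Bmpr1b at 0.763 CPM (next 1.85). The cause of these values was not tested.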

How the results depend on the processing

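Of 275 values (55 genes in 5 comparisons), 58 were DEG calls, of which 37 held under all the alternatives run, and 199 of the other 217 stayed uncalled. The calls lost are given beside the genes in the report. With no fold threshold the counts among the 55 genes were 33 for Obese versus Lean, 24 for Cmpd 1 versus Food matched, 14 for Cmpd 1 versus Obese and 29 for Cmpd 1 versus Lean, since more genes qualify. Of all genes tested, 48.2%, 22.8%, 14% and 39% were called then, in that order. Leaving out each library in turn gave 20 to 24 DEGs for Obese versus Lean, 9 to 13 for Cmpd 1 versus Food matched, 4 (without Cmpd 1 rat 4) to 9 (without Cmpd 1 rat 1) for Cmpd 1 versus Obese, 0 to 1 for Food matched versus Obese, 13 to 17 for Cmpd 1 versus Lean and 35 to 38 over the 4 groups. Shares of all genes in these fits are not given here. Without the 5 libraries with transcripts of other tissues the counts were 20, 14, 6, 2, 13 and 36 in the same order. Of all genes tested, 15.5%, 7.91%, 3.18%, 1.08%, 11% and 41.3% were called then. limma-voom called 4 and library size alone 8 for Cmpd 1 versus Obese, with 4 higher and 4 lower in the second, against 2 higher and 4 lower with TMM scaling. limma-voom called 8 for Cmpd 1 versus Food matched. Of all genes, limma-voom called 3.18% and library size alone 3.55% for Cmpd 1 versus Obese. For Cmpd 1 versus Food matched limma-voom called 5.98%. Grem1 in Cmpd 1 versus Lean rats changed sign, at −0.40 on the log2 scale over all libraries, 3.15 without the 5 libraries, where it was called, and −0.72 to 2.65 when each library was left out, with 2.65 without Lean rat 2 also called.

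The replicate number as a block gave 23, 10, 6, 0, 17 and 35 in the order above, where 21.4%, 5.95%, 3.3%, 0.0113%, 15.8% and 52.8% of all genes were called. The numbers do not pair the rats: 1 of 30 same-numbered pairs correlated above 0.1, and 3 libraries correlated best with their own number. Depth limited Bmp8a, Bmp15, Gdf3, Grem1 and the 9 untested genes, where differences were not detectable or rest on few reads. Few reads also lie behind Bmpr1b, with 6 to 18 per Cmpd 1 library, and Inhba, with 17 to 43. Nog held 22 to 56 reads per library in the obese groups.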

Other observations

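Food matched rats 2 and 5 were each the highest of their group for 17 of the 55 genes, Obese rat 2 for 17 and Lean rat 1 for 16, while Obese rat 4 and Lean rat 1 were each the lowest of their group for 18. Of adipose progenitor and fibroblast markers, Cd34, Dpp4, Pi16 and Dcn fell and Col1a1, Col3a1 and Lum rose in Obese against Lean rats, so these 10 markers did not move together. Lum (−1.08 on the log2 scale) was the only one called with Cmpd 1 against Food matched rats. Adipocyte markers did not move together either. Slc2a4, the insulin-responsive glucose transporter, was lower in Obese than in Lean rats (−1.37) and higher in Cmpd 1 rats against Food matched rats (0.76). Lep (leptin) was higher in Obese than in Lean rats (0.73) and at −0.55 in Cmpd 1 against Food matched rats, under the fold threshold.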
